A study of Mus musculus with 16 samples.

Results

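Of the 19540 genes listed for T cells of mouse visceral adipose tissue (VAT, the fat around the abdominal organs), 8 chemokine genes are described here: Ccl1, Ccl3, Ccl4, Ccl5, Xcl1, Cxcl2, Cxcl3 and Cxcl10. They were taken by gene symbol, and all 8 were found. RNA was sequenced from sorted regulatory T cells (Treg, the CD4 T cells that express Foxp3 and restrain other immune cells) and from conventional T cells (Tconv). The labels give the same line for every sample, with loxP-flanked Hpgd and Foxp3-YFP-Cre, a recombinase that deletes the flanked gene in cells that express Foxp3, while the titles mark each library as KO or WT. Hpgd encodes the enzyme that inactivates prostaglandin E2. There were 4 Treg KO, 3 Treg WT, 5 Tconv KO and 4 Tconv WT libraries, from C57BL/6JRcc mice aged 12 weeks. Genotype therefore rests on the titles alone, and Tconv KO are Tconv from mice in which the deletion is directed to Treg. The series describes 5 animals with the deletion and 4 WT animals, but no label ties a library to an animal, so p-values measure the spread between these libraries only.

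Chemokines are small secreted proteins that draw leukocytes along a gradient by binding G protein-coupled receptors. T cells make several of them on activation or as part of an effector program, and in fat they are best known for bringing in monocytes, neutrophils and further T cells. Ccl3, Ccl4 and Ccl5 draw monocytes and T cells, and Ccl3 and Ccl5 bind Ccr1. Xcl1 binds Xcr1 on cross-presenting dendritic cells, Cxcl2 and Cxcl3 bind Cxcr2 on neutrophils, Cxcl10 binds Cxcr3 on effector T cells, and Ccl1 binds Ccr8.

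The genes lie in 3 clusters or sites of the mm10 genome. Cxcl2 (chromosome 5, 90903873 to 90905938, plus strand), Cxcl3 (chromosome 5, 90786103 to 90788093, plus strand) and Cxcl10 (chromosome 5, 92346638 to 92348882, minus strand) each have 4 exons. On chromosome 11 lie Ccl1 (82176657 to 82179812, minus), Ccl5 (83525778 to 83530518, minus), Ccl3 (83647844 to 83649355, minus) and Ccl4 (83662584 to 83664683, plus), and Xcl1 is on chromosome 1 (164931644 to 164935527, minus). These 5 genes have 3 exons each. Of the 8 symbols, 6 matched the promoter table, not Ccl4 and Ccl5. Upstream sequences are shown for the members among them that passed a test between the cell types, and for Cxcl10, which passed in neither genotype. Ccl1 passed in neither as well, and its sequence is not printed. Each is the 250 bases before the RefSeq start (GRCm38.p6), read 5′ to 3′ on the gene's strand, and capitals mark matches to the NF-kB consensus on either strand, with overlapping matches joined. The windows are chr5:90903649-90903898 (plus) for Cxcl2, chr5:90785851-90786100 (plus) for Cxcl3, chr5:92348890-92349139 (minus) for Cxcl10, chr11:83649379-83649628 (minus) for Ccl3 and chr1:164935523-164935772 (minus) for Xcl1.
Cxcl2: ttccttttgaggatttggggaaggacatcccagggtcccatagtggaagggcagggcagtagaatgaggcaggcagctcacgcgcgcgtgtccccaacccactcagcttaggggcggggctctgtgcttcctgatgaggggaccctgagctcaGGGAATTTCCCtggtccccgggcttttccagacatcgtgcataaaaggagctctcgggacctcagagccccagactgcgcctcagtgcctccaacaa
Cxcl3: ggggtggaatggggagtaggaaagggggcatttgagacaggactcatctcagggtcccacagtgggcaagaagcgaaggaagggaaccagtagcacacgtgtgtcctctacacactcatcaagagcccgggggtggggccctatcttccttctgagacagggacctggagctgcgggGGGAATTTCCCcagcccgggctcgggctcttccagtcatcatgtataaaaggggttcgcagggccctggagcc
Cxcl10: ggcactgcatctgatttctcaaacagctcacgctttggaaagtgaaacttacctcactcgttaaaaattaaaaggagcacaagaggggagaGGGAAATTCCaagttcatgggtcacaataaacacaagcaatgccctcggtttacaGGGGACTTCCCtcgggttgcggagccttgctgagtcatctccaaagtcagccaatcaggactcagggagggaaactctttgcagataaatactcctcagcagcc
Ccl3: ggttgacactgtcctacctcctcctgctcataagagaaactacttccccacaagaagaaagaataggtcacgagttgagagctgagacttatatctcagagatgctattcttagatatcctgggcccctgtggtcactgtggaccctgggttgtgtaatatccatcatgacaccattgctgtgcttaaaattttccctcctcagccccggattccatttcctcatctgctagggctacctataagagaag
Xcl1: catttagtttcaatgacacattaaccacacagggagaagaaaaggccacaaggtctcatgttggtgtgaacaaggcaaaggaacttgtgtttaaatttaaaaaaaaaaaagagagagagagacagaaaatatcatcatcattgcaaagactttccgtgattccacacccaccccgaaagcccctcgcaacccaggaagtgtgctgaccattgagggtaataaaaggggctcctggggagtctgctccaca

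The Cxcl2 window held an NF-kB match from -97 to -87 relative to the start, and the Cxcl3 window the same letters from -73 to -63. Cxcl10 held matches from -159 to -150 and from -104 to -94, and an interferon-stimulated response element, searched on both strands as GAAA, any 2 letters and GAAA, from -213 to -204. The Ccl1 window (chr11:82179813-82180062, minus) held an NF-kB match from -196 to -186, and the Ccl3 and Xcl1 windows held none. A TATA box, searched as TATAAA on both strands, was found in Cxcl3 alone, from -30 to -25. Of 32841 RefSeq promoter windows of this length, 7.25% held the NF-kB consensus, 2.98% the response element and 12.4% the TATA box. The motifs were chosen with the sequences in view, and a match is a description of letters.

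Values are depth-scaled read counts to which 1 was added, so that 1 means no reads. Libraries held 4.77 to 8.74 M reads in Treg KO, 7.57 to 9.10 M in Treg WT, 5.90 to 56.7 M in Tconv KO and 3.39 to 7.88 M in Tconv WT, with Tconv KO 3 the deepest. Hpgd had 0 to 2 reads in each Treg KO library and 79 and 63 reads in Treg WT 1 and Treg WT 2, but only 3 in the library labelled Treg WT 3, and in Tconv only Tconv KO 3 had any, at 41. Foxp3 read 279 to 616 in the Treg libraries and 1 to 39.3 in the Tconv libraries, and the T cell genes Cd3e and Cd4 were high in all 16. Among Tconv, WT 1, WT 3 and KO 3 stand apart in the genes of type 2 cells, where Il5 read 599.7, 426 and 940.4, against 1 to 52.4 in the other 6. Tconv WT 1 also had the neutrophil gene S100a8 at 10195, and Tconv WT 3 the haemoglobin gene Hba.a1 at 37008.

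Ccl5, Xcl1, Ccl3 and Ccl4 had lower means in Treg than in Tconv in both genotypes, and Cxcl2 and Cxcl3 higher ones. In KO mice all 6 passed the test between the cell types, with 4 lower and 2 higher in Treg, where 6.81% of all tested genes passed. In WT mice Ccl3, Ccl5 and Xcl1 passed, all lower in Treg, where 4.18% of all tested genes passed. None of the 8 passed between KO and WT in either cell type. The plot of values by library shows these levels.

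**Figure D1:**
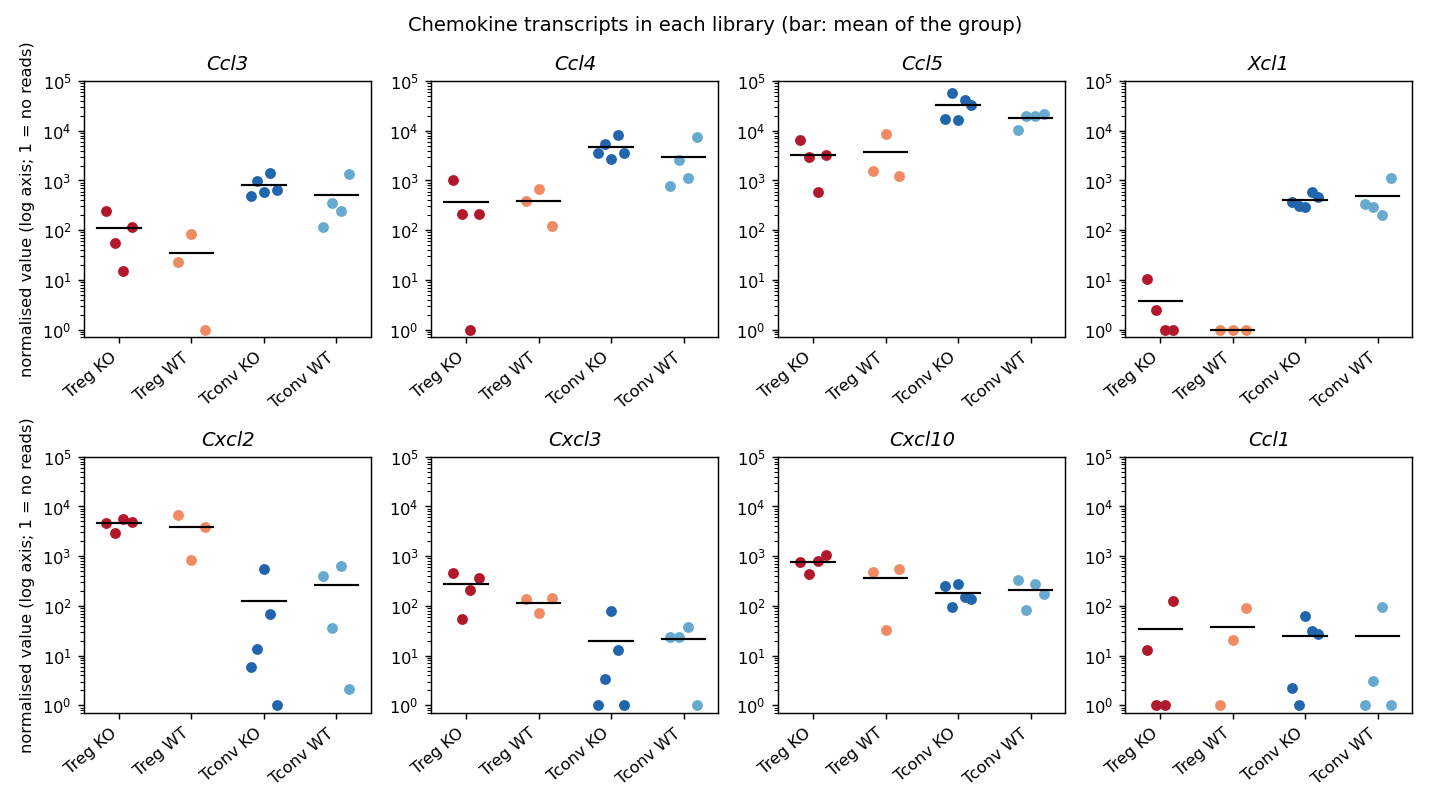
Normalised values of the 8 chemokine genes in each library (points, log axis on which 1 means no reads), with the mean of each group as a bar, for Treg KO, Treg WT, Tconv KO and Tconv WT. All 7 Treg libraries lie below all 9 Tconv libraries for Ccl5 and Xcl1, and above them for Cxcl2.

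Ccl5 (RANTES), a chemokine kept by memory and cytotoxic T cells, had the highest mean level per kilobase of transcript in both cell types, although in Treg it did not stand out from Cxcl2. It read 6379, 2991, 596 and 3230.4 in the Treg KO libraries, against 17379, 57579.6, 16661, 41270.4 and 32357 in the Tconv KO libraries. In WT mice it read 1534, 8557 and 1238 in Treg, against 10566, 20152, 20112 and 21908 in Tconv. No Treg library reached any Tconv library in either genotype, and the closest pair was Treg WT 2 with Tconv WT 1. The log2 difference, Treg minus Tconv, was -3.58 ± 0.58 (SE) in KO mice (limma with Benjamini-Hochberg adjustment over 14319 genes, adjusted p = 0.000495) and -2.79 ± 0.66 in WT mice (adjusted p = 0.0188). Log2 differences here are of the value plus 1, which understates the change of low genes. The WT call was lost without Treg WT 1 (adjusted p = 0.0854), without the library labelled Treg WT 3 (0.119) or without Tconv WT 4 (0.0521), while without Treg WT 2 the difference was -3.67 (0.00177). In KO mice the difference was -2.90 without Treg KO 3, and the call held.

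Ccl3 and Ccl4 are neighbours on chromosome 11 and encode the macrophage inflammatory proteins that activated T and NK cells release. Ccl3 read 247, 54.8, 15.2 and 117 in Treg KO, against 489.9, 989.8, 578, 1404 and 639.8 in Tconv KO. It read 22.9 and 82.1 in Treg WT 1 and Treg WT 2 and had no reads in the library labelled Treg WT 3, against 118, 352, 248 and 1338 in Tconv WT. Within each genotype all Treg libraries were below all Tconv libraries, although Treg KO 1 lay above Tconv WT 1. The difference was -3.41 ± 0.90 in KO mice (limma, Benjamini-Hochberg adjusted p = 0.0237) and -4.44 ± 1.02 in WT mice (adjusted p = 0.0154). The WT value rests in part on the library labelled Treg WT 3, without which it was -2.95 (adjusted p = 0.107), and was -5.64 without Treg WT 2. Without Tconv WT 4 the WT adjusted p was 0.0550. The KO call was lost without Treg KO 2 (0.0585), Treg KO 3 (-2.69, 0.112), Tconv KO 2 (0.0537) or Tconv KO 4 (0.0608), and the difference was -4.005 without Treg KO 1.

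Ccl4 had a higher mean per kilobase than Ccl3 in every group. It read 1041, 209.9 and 214 in Treg KO 1, 2 and 4 and had no reads in Treg KO 3, against 3509, 5348, 2672, 8038 and 3550.2 in Tconv KO. The WT values were 383, 671 and 121 in Treg, against 789.9, 2528, 1109 and 7591 in Tconv. Treg and Tconv libraries did not overlap within either genotype. The difference was -5.44 ± 1.16 in KO mice (limma, Benjamini-Hochberg adjusted p = 0.00549). In WT mice it was -2.68 ± 1.32 and did not pass (0.323), but the same difference passed without Treg KO 3 (0.0343), which enters only through the shared spread. The size in KO mice rests on Treg KO 3, as it was -3.56 without that library (0.00304) and -6.57 without Treg KO 1 (0.00120).

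Xcl1 (lymphotactin), made by activated T and NK cells, was close to absent from Treg. In Treg KO it had 9 reads in all, with values of 10.6 and 2.54 in Treg KO 1 and Treg KO 2 and no reads in the other 2 libraries, against 363, 305, 294, 597 and 469 in Tconv KO. The Treg WT libraries had no reads, against 343, 293, 205 and 1106 in Tconv WT. The cell types did not overlap in any library. Against a floor of 3 reads per library, Xcl1 was at least 125-fold lower in Treg WT than in Tconv WT, and at least 72.2-fold lower without Tconv WT 4, the highest of its group. The difference in KO mice was -6.77 ± 0.64 (limma, Benjamini-Hochberg adjusted p = 1.75e-06), and the WT difference passed as well (3.92e-06). Xcl1 passed the filter on low values through the Tconv libraries alone, so among genes tested it had to be higher there. A non-coding gene, Gm20743, lies on the other strand and shares 14.2% of the 31-base stretches of the Xcl1 transcript. The libraries do not mark strand, so reads of these stretches could come from either gene.

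Cxcl2 (MIP-2), a chemokine that draws neutrophils and is best known from macrophages and epithelium, was high in Treg. It read 4724, 2942, 5685 and 4830 in Treg KO, against 5.86, 13.5, 548, 68.8 and 1 in Tconv KO. In WT mice it read 6715, 826 and 3868 in Treg, against 403, 35.5, 623 and 2.13 in Tconv. The lowest Treg library, Treg WT 2, lay above the highest Tconv library, Tconv WT 3. The difference was 7.54 ± 1.40 in KO mice (limma, Benjamini-Hochberg adjusted p = 0.00167) and 5.25 ± 1.60 in WT mice, where it did not pass (0.0735). Leaving out the 3 Tconv libraries that stand apart in type 2 genes (WT 1, WT 3 and KO 3), the differences were 8.67 in KO mice and 8.02 in WT mice. Those libraries also have the highest Cxcl2 of the Tconv, so the larger difference follows from leaving them out and is no support for it. The KO difference was 8.67 without Tconv KO 3 alone and 6.64 without Tconv KO 5, both past the threshold. The WT adjusted p was 0.0485 without Tconv WT 1 and 0.0328 without Tconv WT 3, which holds for the same reason, and 0.0313 without Tconv KO 3, which enters through the shared spread alone.

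Cxcl3, which lies near Cxcl2 and encodes another Cxcr2 ligand, was lower per kilobase than Cxcl2 in every library with reads of both. It read 458, 54.8, 213 and 372 in Treg KO, against 3.34, 78.9 and 12.97 in Tconv KO 2, 3 and 4 and no reads in Tconv KO 1 and 5. The WT libraries read 135, 71.7 and 142 in Treg, against 23.7, 23.3 and 38.2 in Tconv WT 1, 2 and 3 and no reads in Tconv WT 4. The groups were apart in WT mice, while Treg KO 2 lay below Tconv KO 3 in KO mice. The difference was 4.88 ± 1.07 in KO mice (limma, Benjamini-Hochberg adjusted p = 0.00658), 5.53 without Treg KO 2 and 5.75 without Tconv KO 3. In WT mice it was 2.93 ± 1.22 and did not pass (0.217). Cxcl2 and Cxcl3 share 7.41% and 8.11% of their 31-base stretches with each other, so a small part of their reads could be assigned to either.

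Cxcl10 (IP-10) is induced by interferons and by NF-kB. It read 770.1, 447, 799.6 and 1046 in Treg KO, against 250.3, 95.3, 281, 153 and 136 in Tconv KO, with all Treg above all Tconv libraries. Among WT libraries it read 488, 33.3 and 560.1 in Treg, against 327, 82.2, 273 and 169.9 in Tconv, and these overlap because Treg WT 2 was the lowest of all 16. The difference was 2.11 ± 0.63 in KO mice, just short of the threshold (limma, Benjamini-Hochberg adjusted p = 0.0512), and passed in 14 of 28 alternative settings, over which its adjusted p ran from 0.00136 to 0.146. The WT difference was 0.16 ± 0.72 (0.954). The Cxcl10 transcript shares 9.68% of its 31-base stretches with Art3, which overlaps it on the other strand, so reads of these stretches could come from either gene.

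Ccl1, the ligand of Ccr8, was patchy. It read 13.1 and 125 in Treg KO 1 and Treg KO 4 and had no reads in Treg KO 2 and 3, and read 21.1 and 92.5 in Treg WT 2 and the library labelled Treg WT 3, with none in Treg WT 1. Tconv KO libraries read 2.22, 1, 61.5, 31.3 and 27.7, and Tconv WT libraries 1, 3.03, 94.6 and 1. Every group holds libraries without reads, and all 4 groups overlap. The difference between Treg and Tconv was -0.50 ± 1.48 in KO mice and 1.36 ± 1.69 in WT mice, and neither passed (limma, Benjamini-Hochberg adjusted p = 0.916 and 0.774).

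Across the table, 6 of the 8 chemokines passed between Treg and Tconv in KO mice, where 6.81% of the tested genes did (4.16% higher and 2.65% lower in Treg), and 3 of 8 in WT mice, where 4.18% did (2.2% higher and 1.98% lower). In each genotype 6 members had groups that did not overlap (2 above and 4 below), where 10.7% of the genes did in KO mice (6% above and 4.66% below) and 12% in WT mice (5.87% above and 6.1% below). Over all 7 Treg and 9 Tconv libraries, Ccl5 and Xcl1 lay below and Cxcl2 above without overlap, as did 1.35% and 1.77% of the genes, or 3.12% in either direction. The median log2 difference of the 8 was -1.96 in KO mice, where that of all genes was 0.04, and -1.26 in WT mice, where that of all genes was -0.0037. Signs were split, with 3 members positive and 5 negative in KO mice and 4 of each in WT mice. The medians therefore do not describe a shift of the 8 as a set. With Tconv KO 3, WT 1 and WT 3 left out, 7 members passed in KO mice, where 7.35% of 13950 genes did, and 4 in WT mice, where 3.88% did. Added were Cxcl10 in KO mice and Cxcl2 in WT mice. The libraries left out have the highest Cxcl2 of the Tconv, and Tconv KO 3 the highest Cxcl10 of Tconv KO. The higher counts are no support, since the libraries left out were high in the genes added. Both genes also passed in some settings that kept all 16 libraries. Over all alternatives, Cxcl10 in KO mice passed in 14 of 28 and Cxcl2 in WT mice in 9 of 28. Since these are sorted bulk samples, fewer cells that make a chemokine and less RNA per cell cannot be told apart. The plot of Treg minus Tconv differences gives both genotypes side by side.

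**Figure D2:**
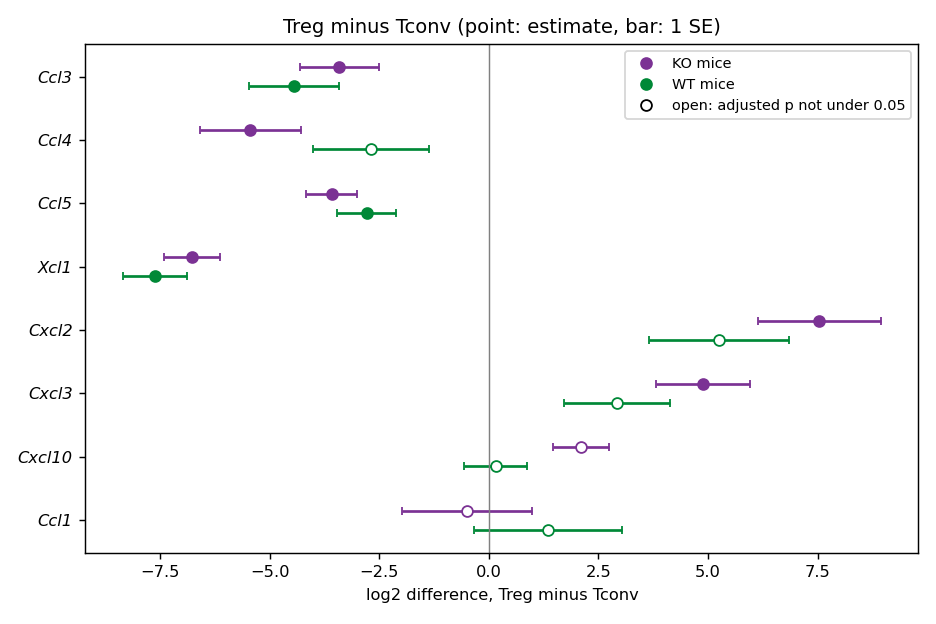
Log2 difference of each chemokine, Treg minus Tconv (point) with 1 SE (bar), in KO mice and in WT mice. Filled points passed at an adjusted p under 0.05: 6 in KO mice and 3 in WT mice, with Ccl3, Ccl4, Ccl5 and Xcl1 on the negative side and Cxcl2 and Cxcl3 on the positive side in both genotypes.

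Per kilobase of transcript, which allows genes to be compared, Ccl5 led in both cell types and the order below it differed. In Treg, Ccl5 averaged 6584 ± 5513 per kb and Cxcl2 3811 ± 1737 (SD, n = 7), and Ccl5 was the higher in 4 of 7 libraries, so their order does not stand out from the spread. Cxcl2 exceeded Ccl4, next in the order (570.3 ± 549), in 6 of 7 libraries, and Ccl4 exceeded Cxcl10 (540.2 ± 295) in 3 of 7. In Tconv, Ccl5 averaged 49703 ± 27837 per kb (SD, n = 9) and exceeded Ccl4 (5914 ± 3935) in 9 of 9 libraries, and Ccl4 exceeded Ccl3 (892 ± 604) in all 9. Ccl3 and Xcl1 (843 ± 524) had no fixed order, with Ccl3 higher in 3 of 9 libraries.

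The share of the CXC members Cxcl2, Cxcl3 and Cxcl10 in the summed per-kilobase level of the 8 genes set the cell types apart. It was 28.0%, 34.1%, 84.2% and 45.5% in Treg KO, and 65.5%, 4.66% and 60.6% in Treg WT. In Tconv KO it was 0.587%, 0.0843%, 2.20%, 0.227% and 0.181%, and in Tconv WT 3.03%, 0.297%, 2.05% and 0.274%. The Treg share varied widely, and Treg WT 2 was closest to Tconv. Its Ccl5 share of 88.9% was within the Tconv range of 72.6% to 91.7%. The plot of shares per library shows this.

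**Figure D3:**
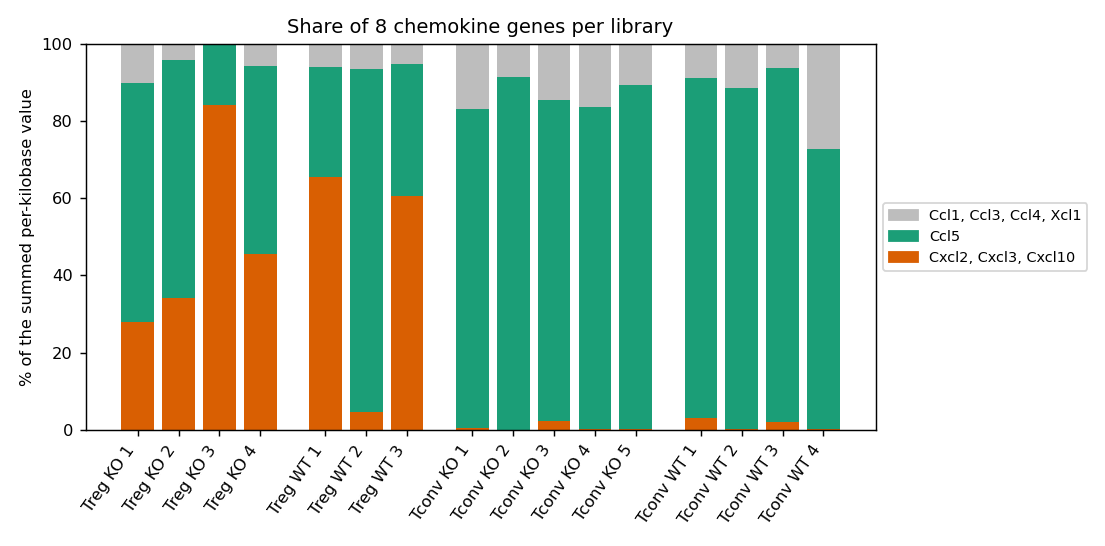
Share of Cxcl2, Cxcl3 and Cxcl10, of Ccl5, and of the other 4 genes in the summed per-kilobase value of the 8 chemokine genes, as stacked percentages, 1 bar per library. The CXC share runs from 4.66% to 84.2% in the Treg libraries and from 0.0843% to 3.03% in the Tconv libraries.

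Deletion of Hpgd in Treg was compared next. No member passed between Treg KO and Treg WT (limma, Benjamini-Hochberg), where 0.021% of all genes did, and voom on the recovered reads called none either. At an unadjusted p under 0.05 there were 2 members, Ccl3 and Cxcl10, where 6.22% of all genes reached it. Ccl3 averaged 108 ± 101 in Treg KO (SD, n = 4) and 35.3 ± 42.0 in Treg WT (SD, n = 3), a log2 difference of 2.18 ± 1.02 (SE, adjusted p = 0.798), and of 0.68 without the library labelled Treg WT 3. Cxcl10 averaged 766 ± 246 in Treg KO and 361 ± 286 in Treg WT, a difference of 1.796 ± 0.72 (adjusted p = 0.742). Treg WT 2, at 33.3, lies under the others, and the difference ran from 0.48 to 2.50 as each library was left out. The remaining 6 members differed by -1.68 (Ccl4) to 0.92 (Cxcl3), and no member had groups that did not overlap, where 6.01% of the genes did.

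Between Tconv KO and Tconv WT no member passed, as was the case for 0% of all genes, and none reached an unadjusted p under 0.05, where 5.45% of all genes did. Voom called none. No member had groups apart here either, where 1.67% of the genes did. Ccl5 averaged 33049.5 ± 17204 in Tconv KO (SD, n = 5) and 18184 ± 5148 in Tconv WT (SD, n = 4), a log2 difference of 0.75 ± 0.58 (SE, limma, Benjamini-Hochberg adjusted p = 0.957). Ccl3 and Ccl4 differed by 1.14 ± 0.90 and 1.08 ± 1.16, and by 0.24 and 0.14 with Tconv KO 3, WT 1 and WT 3 left out. Cxcl2 differed by -1.62 ± 1.40, and by 0.02 without those libraries. For the difference of the deletion effects between Treg and Tconv, no member passed and none reached an unadjusted p under 0.05, where 0% and 5.22% of all genes did, and voom called none. Cxcl10 had the smallest p among the members, with a difference of effects of 1.95 ± 0.96 (limma, Benjamini-Hochberg adjusted p = 0.929). These misses do not show that levels were alike, since the SEs of KO against WT within a cell type span 0.58 to 1.69 on the log2 scale. The plot of KO minus WT differences shows how wide they are.

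**Figure D4:**
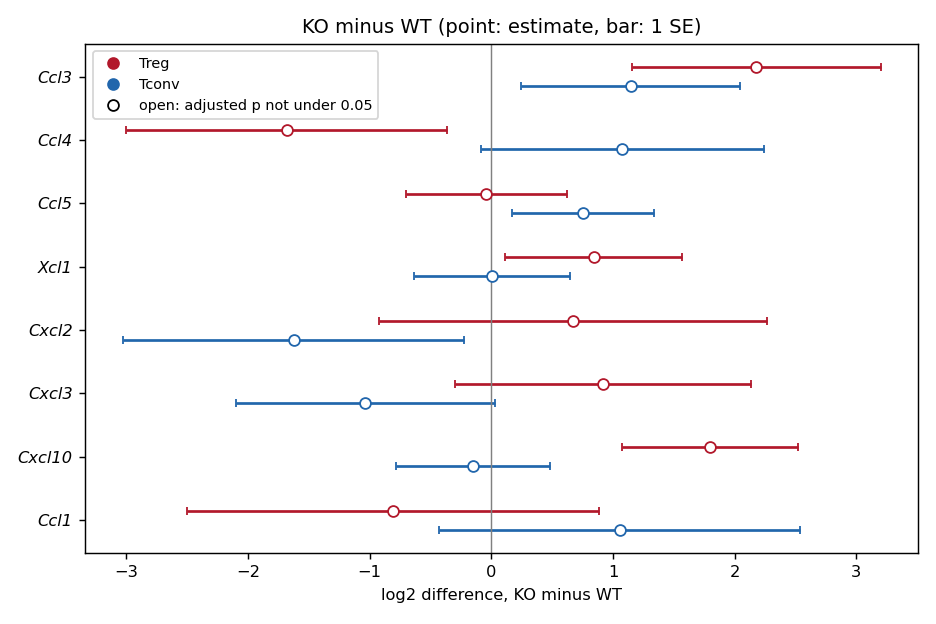
Log2 difference of each chemokine, KO minus WT (point) with 1 SE (bar), in Treg and in Tconv. All points are open, as none passed at an adjusted p under 0.05, and the values run from -1.68 for Ccl4 to 2.18 for Ccl3 in Treg and from -1.62 for Cxcl2 to 1.14 for Ccl3 in Tconv.

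Within a cell type, members were compared across libraries on the log2 scale, in 43 pairs (28 in Tconv and 15 in Treg). In Tconv, Ccl3 and Ccl4 moved together (Pearson r = 0.977, Spearman rho = 0.983, n = 9, exact permutation p = 2.48e-05 for r and 4.96e-05 for rho, adjusted 0.00107 and 0.00213 by Benjamini-Hochberg). Without the libraries farthest from the median of Ccl3, Tconv KO 4 and Tconv WT 1, r was 0.952, and r was 0.970 after removing the genotype means. Cxcl2 and Cxcl3 also moved together in Tconv (r = 0.942, rho = 0.949, n = 9, exact permutation p = 0.000529 and 0.00043, adjusted 0.0114 and 0.00924). Without Tconv KO 5 and Tconv WT 3 their r was 0.929, and after removing the genotype means 0.937. Because Tconv WT 1, Tconv WT 3 and Tconv KO 3 stand apart, both were computed in the other 6 Tconv libraries as well. For Ccl3 and Ccl4, r was 0.985 (exact permutation p = 0.00139) and rho 1 (exact permutation p = 0.00278). For Cxcl2 and Cxcl3, r was 0.901 (exact permutation p = 0.025) and rho 0.880 (exact permutation p = 0.05). Among these libraries, Cxcl3 had no reads in Tconv KO 1, KO 5 and WT 4. It had 3, 11 and 15 reads in Tconv KO 2, WT 2 and KO 4, so its r there rests on few reads. Cxcl2 and Cxcl3 also share some sequence, as given above, and its part in their correlation was not tested. No pair passed in Treg, where Ccl4 and Ccl5 came closest (r = 0.831, rho = 0.857, n = 7, exact permutation p = 0.00536 and 0.0238, adjusted 0.0768 and 0.128), with r of 0.711 without Treg KO 1 and Treg KO 3. Cxcl2 and Cxcl10 in Treg had r = 0.927, but -0.21 without Treg WT 2 and Treg KO 2, so that relation rests on those libraries. The plot of paired values shows both Tconv relations.

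**Figure D5:**
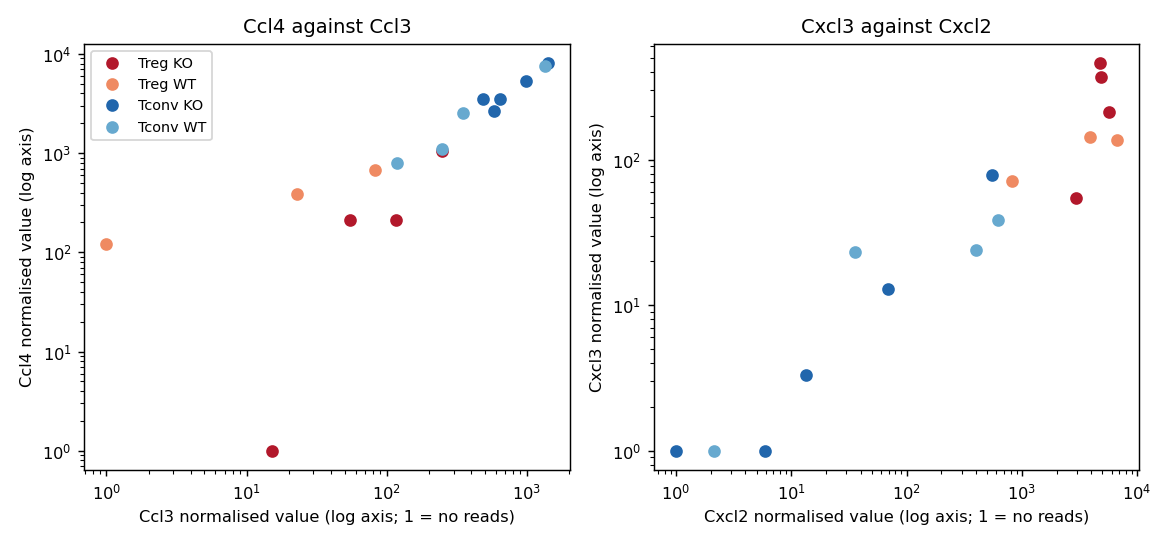
Ccl4 against Ccl3 (left) and Cxcl3 against Cxcl2 (right), 1 point per library, log axes on which 1 means no reads, coloured by group. The Tconv points form a line in both panels (r = 0.977 and 0.942, n = 9).

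The Tconv libraries with the most Cxcl2 were those high in genes of type 2 cells. Tconv WT 1, Tconv WT 3 and Tconv KO 3, with Cxcl2 at 403, 623 and 548, had Calca at 506, 375 and 289, against 1 to 32.2 in the other 6. Il2ra, which is on the Treg marker list and not the type 2 list, read 588, 729 and 1299 in them, against 18.03 to 86.2. The 4 Treg markers (Foxp3, Il2ra, Ikzf2 and Ctla4) together did not set these libraries apart. Their sums were 3723, 3597 and 3579, against 2790 to 4293 in the other 6. The 5 genes of the type 2 innate lymphoid cell list, which Th2 cells share, were all in the table and summed to 860 to 1458 in Treg KO, 249 to 2931 in Treg WT, 6.22 to 1627 in Tconv KO and 1.13 to 1685 in Tconv WT, with none at 0 in a whole group. The 6 neutrophil markers summed to 17.5 to 38.2 in Treg KO, 8.72 to 85.8 in Treg WT, 6.38 to 36.5 in Tconv KO and 25.2 to 14911 in Tconv WT, where the highest was Tconv WT 1. Of the 6, between 2 and 4 had reads in each Treg KO library and between 1 and 4 in each Treg WT library, with Mmp8 at no reads in both groups, Ly6g in Treg KO and Retnlg in Treg WT. Of 11 macrophage and monocyte markers, 10 were in the table and summed to 31.2 to 292 in Treg KO, 1.74 to 55.7 in Treg WT, 44.0 to 224 in Tconv KO and 22.3 to 1078 in Tconv WT, and C1qa, C1qc and Lyz2 had no reads in Treg WT. The part of these cells in the Cxcl2 levels of Treg and Tconv was not tested.

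Ccl3, Ccl4 and Xcl1 were highest among Tconv WT in Tconv WT 4, which also had the most RNA of NK cell genes, with Klrb1c at 347, Klre1 at 177 and Ncr1 at 67.4. The 5 markers of CD8 T and NK cells summed to 18.1 to 140.1 in Treg KO, 67.3 to 174 in Treg WT, 92.4 to 488 in Tconv KO and 12.1 to 716 in Tconv WT, and Ncr1 had no reads in Treg WT and Tconv KO. Tconv KO did not show the same pattern. The sum of 488 was that of Tconv KO 3, which had the lowest Ccl4 (2672) and Xcl1 (294) of its group. Tconv KO 4, highest of its group in Ccl3, Ccl4 and Xcl1, summed to 210. The part of CD8 T and NK cells in these levels was not tested. Treg WT 2, low in Cxcl2 and Cxcl10 and high in Ccl5, had the lowest Il2ra of the Treg libraries (2154, against 3487 to 6537 in the other 6) and the highest Cd8a (76.0, against 2.83 to 17.9).

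Genes were ranked by how closely they followed each member across libraries, by the lower of the r values over the 9 Tconv and the 7 Treg libraries, among 8573 or 8574 genes with sufficient levels. This is a description, and the libraries share depth and cell content. Areg, which encodes the tissue repair factor amphiregulin, was most like Cxcl2 (r = 0.952 in Tconv and 0.968 in Treg). Nkg7, a cytotoxic granule protein, was most like Ccl5 (0.969 and 0.926), followed by Pml (0.823 and 0.807) and the perforin gene Prf1 (0.962 and 0.799). Plcxd2 was most like Ccl4 (0.812 and 0.808), followed by Nkg7 (0.777 and 0.893). For Cxcl10 the closest were Irf2bp2 (0.962 and 0.959) and the cell cycle inhibitor Cdkn1a (0.932 and 0.975). Ccl3 was followed most closely by Scyl3 (0.804 and 0.835), and Cxcl3 by Myl12b (0.897 and 0.854). Xcl1 and Ccl1 had too few Treg libraries with reads, and in Tconv alone were closest to Cd2 (0.963) and Ttc33 (0.935).

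Among receptors of these chemokines, 8 of 10 were in the table and 7 were tested. In KO mice 3 passed as higher and 2 as lower in Treg, where 4.16% and 2.65% of all genes did, and in WT mice 2 passed as higher and 1 as lower, where 2.2% and 1.98% did. Ccr1, which binds Ccl3 and Ccl5, averaged 945 ± 472 in Treg KO (SD, n = 4) and 1.49 ± 0.73 in Tconv KO (SD, n = 5), a log2 difference of 8.47 (limma, Benjamini-Hochberg adjusted p = 6.13e-06). It passed the filter on low values through the Treg libraries, so among genes tested it had to be higher there. Ccr3, which binds Ccl5, was also higher in Treg of both genotypes (4.07 in KO mice and 6.10 in WT mice). Cxcr3, which binds Cxcl10, was lower in Treg (-1.62 in KO mice, 0.00387, and -2.15 in WT mice, 0.00188), with 3921 ± 815 in Tconv KO and 5028 ± 1463 in Tconv WT. Ccr8, the receptor of Ccl1, was higher in Treg of KO mice (1.71, 0.0174) and did not pass in WT mice. Cxcr2, the receptor of Cxcl2 and Cxcl3, read 106 ± 46.0 in Treg KO and 72.8 ± 10.8 in Tconv KO and did not pass.

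Of 31 other chemokine ligands, 21 were in the table and 9 reached the filter on low values. Cxcl5 was higher in Treg than in Tconv of KO mice (3.22, limma, Benjamini-Hochberg adjusted p = 0.0126), and Pf4, a platelet chemokine, lower in Treg of WT mice (-3.23, 0.0333). Cxcl5 peaked at 4.19 in Tconv and passed the filter through the Treg libraries alone, and between Treg WT and Tconv WT Pf4 reached it through Tconv WT alone, so both directions were set by the filter. Genes induced by NF-kB, a list of 10 that were all tested, passed as higher in Treg in 10 of 10 cases in KO mice, where 4.16% of all genes did, and in 7 of 10 in WT mice, where 2.2% did, with a median log2 difference of 1.42 and 1.34 where that of all genes was 0.04 and -0.0037. Nfkbia, the NF-kB inhibitor that NF-kB itself induces, averaged 59830 ± 17181 in Treg KO and 11289.5 ± 8457 in Tconv KO. Of 11 interferon-stimulated genes tested, 2 passed as lower in Treg in KO mice (Irf7 and Ifit3), where 2.65% of all genes did, and 1 in WT mice, where 1.98% did, and none passed as higher. Of 16 genes induced by the antigen receptor, 4 passed as higher and 5 as lower in KO mice, against those 4.16% and 2.65% of all genes, the lower ones including Ifng (-2.91, 0.00126) and Tnf (-1.24, 0.00143), and 3 passed as lower and none as higher in WT mice, against 1.98% and 2.2%. No gene of these 5 lists passed between KO and WT in either cell type.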

How the data were processed

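The deposited table gives 19540 genes in 16 libraries as a never-negative signal. Its values show that the authors scaled the reads of each gene by a library factor and added 1. Per the labels' protocols, fat from perfused mice was digested with collagenase and DNase, and sorted cells gave SmartSeq2 libraries, which do not mark strand, run on a NextSeq 500. Per the submitters' processing notes, the build was mm10 and the tools were R 3.3.1, DESeq2 (no version), Partek 6.6, kallisto 0.44 and CASAVA 1.8, listed with no role or order. Sorting markers, the annotation and any use of strand in counting were not given in the sources used here.

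Spacing of the low values showed what 1 read is worth in a library, and 100% of values below 1000 reads then came out whole to within 0.1 of a read (largest distance 0.00474). Depths and floors (3 reads) rest on this. Floors reflect counting error alone, as PCR reads carry no molecular identifiers. The analysis used log2 of the deposited value plus 1, and tested the 14319 genes, all 8 chemokines among them, with 3 or more libraries at 10 or above. A single limma 3.58.1 fit with trend (R 4.3.3) to the 16 libraries, which share 1 estimate of the spread, gave 2-sided p-values for KO against WT in each cell type, for the difference of these effects, and for Treg against Tconv in each genotype. Benjamini-Hochberg adjustment ran over all genes of a comparison, and a gene was called at an adjusted p under 0.05. The procedure was tested on simulated data. Correlations used exact permutation tests, adjusted by Benjamini-Hochberg over 43 pairs. Alternatives varied the pseudocount, filter, scaling, weights, model, block and libraries. The correlations among the other 6 Tconv libraries and the log2 check of single libraries were added after seeing the data.

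Positions are from GENCODE M21, lengths and shared 31-base stretches from the principal transcript, and upstream sequences from RefSeq. Named were the 8 members, and up to 4 genes with the smallest p and up to 3 with the highest mean of each list described. Of the 3 genes most like each member, the closest was always named and the others only in part. Il5, Il2ra, Calca, Cd8a, S100a8, Hba.a1 and the NK cell genes were singled out after their values were seen. Some list genes are counted in their totals but not reported here by name. The members, lists and alternatives were chosen with earlier results of these data known.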

Additional observations from a re-analysis of the deposited data

Results flagged for a closer look

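Within groups of 4 or 5 libraries, the highest or lowest value of a member stood far from the others in 7 of 24 cases checked on the deposited scale. Chance gives about 1 in 20 for normally distributed values, which these skewed values with a lowest possible value of 1 are not. On the log2 scale 1 of the 7, Ccl5 in Tconv WT 1, still stood apart. Cxcl3 in Tconv WT 4, the lowest of its group with no reads, stood apart on the log2 scale alone. Ccl1 read 125 in Treg KO 4, against 1 to 13.1 in the other Treg KO libraries, and 94.6 in Tconv WT 3, against 1 to 3.03 in the other Tconv WT libraries. Ccl5 was lowest in Tconv WT 1, at 10566, against 20112 to 21908 in the rest of its group. Xcl1 read 10.6 in Treg KO 1, against 1 to 2.54, and 1106 in Tconv WT 4, against 205 to 343. Cxcl2 read 548 and Cxcl3 78.9 in Tconv KO 3, against 1 to 68.8 and 1 to 12.97 in the other Tconv KO libraries, so both Cxcr2 ligands stood out in the same, deepest library. Groups of 3 were not checked.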

How the results depend on the processing

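Between Treg and Tconv, the 9 calls kept their direction in 252 alternative values and were lost in 14. Ccl5, Xcl1, Cxcl2 and Cxcl3 in KO mice and Xcl1 in WT mice were lost under none of the alternatives run. In WT mice 3 members passed, where 4.18% of all genes did, against 1 with voom on the recovered reads (Xcl1), where 2.03% did. As each library was left out 1 to 4 passed, where 2.38% to 4.70% of all genes did. The value of 1 was met without the library labelled Treg WT 3 or without Tconv WT 4. In KO mice 6 passed, where 6.81% of all genes did, against 5 to 7 in every alternative, where 4.61% to 10.1% did. With voom, Ccl3 had an adjusted p of 0.193 and Ccl5 of 0.0530 in WT mice, and Ccl3 of 0.0505 and Ccl4 of 0.0592 in KO mice. With only the groups compared in the fit, Ccl3 in WT mice had 0.0820. Voom moved the median of all genes to -0.11 in both genotypes, and called 290 genes in WT mice where the limma trend fit called 599. Fits of only the groups compared called 341, and leaving out the library labelled Treg WT 3 gave 338. Cxcl2 in WT mice passed in 9 of 28 alternatives and Ccl4 in 1, without Treg KO 3. Of the 43 correlations 2 passed, against 0 when the 2 libraries farthest from the median were left out of each pair, which leaves 7 or 5 libraries a pair, and 3 on deviations from the genotype means.

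No member passed between KO and WT, or for the difference of these effects, under any alternative. The following differences, none of them called, changed sign. Ccl5 in Treg KO against Treg WT was -0.04, against 0.39 with quality weights and -0.56 to 0.84 with a library left out. As libraries were left out of that comparison, Ccl1 ran from -2.31 to 0.46, Ccl4 from -2.81 to 0.19 and Cxcl2 from -0.21 to 1.31. Xcl1 in Tconv KO against Tconv WT was 0.01, against -0.055 with voom, -0.059 with the replicate block, -0.44 with Tconv KO 3, WT 1 and WT 3 left out, and -0.30 to 0.51 with a library left out. Without those 3 libraries Cxcl2 was 0.02 and Cxcl10 0.33 there, and Cxcl10 ran from -0.54 to 0.12 with a library left out. In the difference of effects, Ccl3 ran from -0.46 to 2.23 and Ccl5 from -1.31 to 0.085. Cxcl10 in Treg against Tconv of WT mice was 0.16, against -0.12 with voom and -0.54 to 1.47. Ccl1 in KO mice was -0.50, against 0.17 with quality weights, 0.061 without the 3 libraries and -1.76 to 0.23. The cause was not tested.

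Titles give Treg and Tconv libraries the same replicate numbers. Deviations of same-numbered libraries from their group means correlated at r of 0.0227 to 0.0787, under the 0.1 used to call them paired, although each of the 7 Treg libraries correlated best with its own number, a hint from the data and not the design. With the replicate block, which joins the same number across both genotypes, 4 members passed in WT mice, where 3.96% of all genes did. In KO mice 7 passed, where 5.70% did. Added were Cxcl2 in WT mice (limma, adjusted p = 0.0498) and Cxcl10 in KO mice (0.0121). With the block kept within each genotype, 4 members passed in WT mice, where 3.54% of all genes did, and 7 in KO mice, where 5.87% did. Cxcl2 in WT mice then had an adjusted p of 0.0290 and Cxcl10 in KO mice of 0.00948 (limma). The planned count models, edgeR and DESeq2, were not run, and voom on the recovered reads was the only count-based alternative. Xcl1 in Treg, and Cxcl3 and Ccl1 in Tconv, had no reads in several libraries, so their values there lie at or near the floor. Treg WT, with no Xcl1 reads, held 7.57 to 9.10 M reads a library, against 3.39 to 7.88 M in Tconv WT. The part of depth in these values was not tested.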
